A study of Mus musculus with 6 samples.

Results

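The Eph receptors, their ephrin ligands, the semaphorins and the plexins and neuropilins that receive them were examined across the cerebral cortex of mice in which the gene for PEN-2 was targeted with hGFAP-Cre. The members were taken by gene name (Epha, Ephb, Efna, Efnb, Sema classes 3 to 7, Plxn and Nrp). The families were chosen with earlier results of these data known, so shares of members set beside all genes are descriptive. Of 34745 genes in the table, 53 carried such a name, and the 50 that reached 0.5 FPKM in at least 3 of the 6 libraries were kept and tested. FPKM is the number of sequenced fragments scaled for gene length and library depth, so levels of different genes can be set side by side. All 50 reached that level in each of the 6 libraries. The 3 left out were the receptors *Epha1* (0.0242 to 0.0606 FPKM over the libraries) and *Epha2* (0.281 to 0.428 FPKM) and the secreted ligand *Sema3b* (0.298 to 0.477 FPKM), which lay just under the threshold. *Sema3g*, at 0.555 to 0.709 FPKM, lay just above it.

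Total RNA came from cortex at postnatal day 8. Each of the 3 control samples had the genotype Pen-2 F/F, in which loxP sites flank the gene on both alleles. The 3 samples called cKO here (Pen-2_CKO in the labels) were Pen-2 F/F and also carried hGFAP-Cre, a Cre recombinase driven by a human GFAP promoter. That promoter is known to be active in cortical progenitors before birth as well as in astrocytes. Controls had no Cre, so the transgene and the deletion cannot be told apart, and since the labels do not name separate animals, a p-value here covers the variation among these libraries and may be technical. PEN-2, encoded by *Psenen*, is a subunit of γ-secretase, the protease that cuts Notch and many other membrane proteins within the membrane.

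Eph receptors are receptor tyrosine kinases that bind ephrins on neighbouring cells. Ephrin-A ligands are held by a lipid anchor and ephrin-B ligands span the membrane, so that contact can signal into both cells. Semaphorins are secreted or membrane-bound cues read by plexins, large receptors that act on small GTPases and the cytoskeleton, and most class 3 semaphorins also need a neuropilin as the ligand-binding partner. In the postnatal cortex these families are known for axon guidance, dendrite and synapse formation, vessel growth and the contacts of glial cells. γ-Secretase is known to cleave several of the proteins themselves, among them EphA4, EphB2, ephrin-B1, ephrin-B2 and neuropilin-1. RNA levels do not report that cleavage.

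*Psenen* stood at 6.35, 6.86 and 7.32 FPKM in controls 1 to 3 and at 3.56, 3.90 and 4.03 FPKM in cKO 1 to 3, a log2 change of -0.82 ± 0.09 (SE, adjusted p = 0.00441, limma). The libraries held 20255000 to 26815000 fragments, as implied by the smallest steps between values, so 1 FPKM stood for 20.3 to 26.8 fragments per kilobase. Neuronal genes of the cortex were abundant in both groups, with *Slc17a7* at 208.7 ± 36.7 and 203.9 ± 25.9 FPKM and *Neurod6* at 91.9 ± 7.01 and 86.9 ± 10.8 FPKM (mean ± SD, n = 3, control and cKO). Summed over 10 neuron markers, expression was 1963 to 1982 FPKM in controls and 1640.2 to 1763 FPKM in cKO, with *Gad1* called higher and *Tubb3* lower. The most abundant of the 10 averaged 1272.5 FPKM over all libraries, so the sum mostly follows 1 gene. The median log2 difference of the 10 was -0.05, with 3 higher and 7 lower in cKO, and 8 were not called. Marker sets of other cells also differed. Of 12 astrocyte markers, 7 fell and none rose, and their summed level was 269.2 to 343.6 FPKM in controls against 98.7 to 191.3 FPKM in cKO, the highest of these being cKO 3. Of 8 oligodendrocyte precursor markers, 5 rose (118.2 to 143.6 against 274.3 to 343.6 FPKM), as did 9 of 11 oligodendrocyte markers (29.4 to 46.7 against 125.8 to 197.0 FPKM) and 5 of 6 genes of dividing cells (9.91 to 10.1 against 22.3 to 25.4 FPKM). No microglial marker of 8 was called (68.9 to 88.8 against 97.9 to 158.8 FPKM), and the sums of 8 endothelial, 8 mural, 8 meningeal and 8 striatal markers were also higher in every cKO library, with 1, 2, 3 and 2 genes called. Summed over 8 choroid plexus and ependyma markers, expression was 38.6 to 185.7 FPKM in control and 186.9 to 892.7 FPKM in cKO. The most abundant of them averaged 282.8 FPKM over all libraries and made up most of the sum. Only 5 of the 8 were tested, with log2 differences of -1.11 to 2.13 (3 higher, 2 lower), and none was called. No marker in any of these sets was at 0 in all libraries. In whole tissue, fewer cells of a type and less RNA per cell cannot be told apart.

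Most of the guidance genes differed little between the groups, and a small set changed. Summed over all members, expression was 570.0 to 576.2 FPKM in controls against 563.7 to 573.1 FPKM in cKO. The log2 difference, cKO minus control, lay within 0.3 of 0 in 32 of the 50 tested members, and its median was -0.04 against 0.07 over all 14147 genes tested. At an adjusted p under 0.05, 7 members changed (14%), while 5.53% of all tested genes did. *Plxnb3*, *Sema5a*, *Sema3d* and *Nrp1* rose (8% of members, against 3.67% of all genes), and *Plxnb1*, *Sema6c* and *Epha4* fell (6% against 1.87%). The 7 sit on 7 different chromosomes. In 19 members (38%) the unadjusted p was under 0.05 and the libraries of the groups did not overlap, a pattern seen in 21.2% of all tested genes, and 12 of these 19 did not pass the adjusted threshold. *Plxnb3* was the single member that changed by at least 2-fold.

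**Figure D1:**
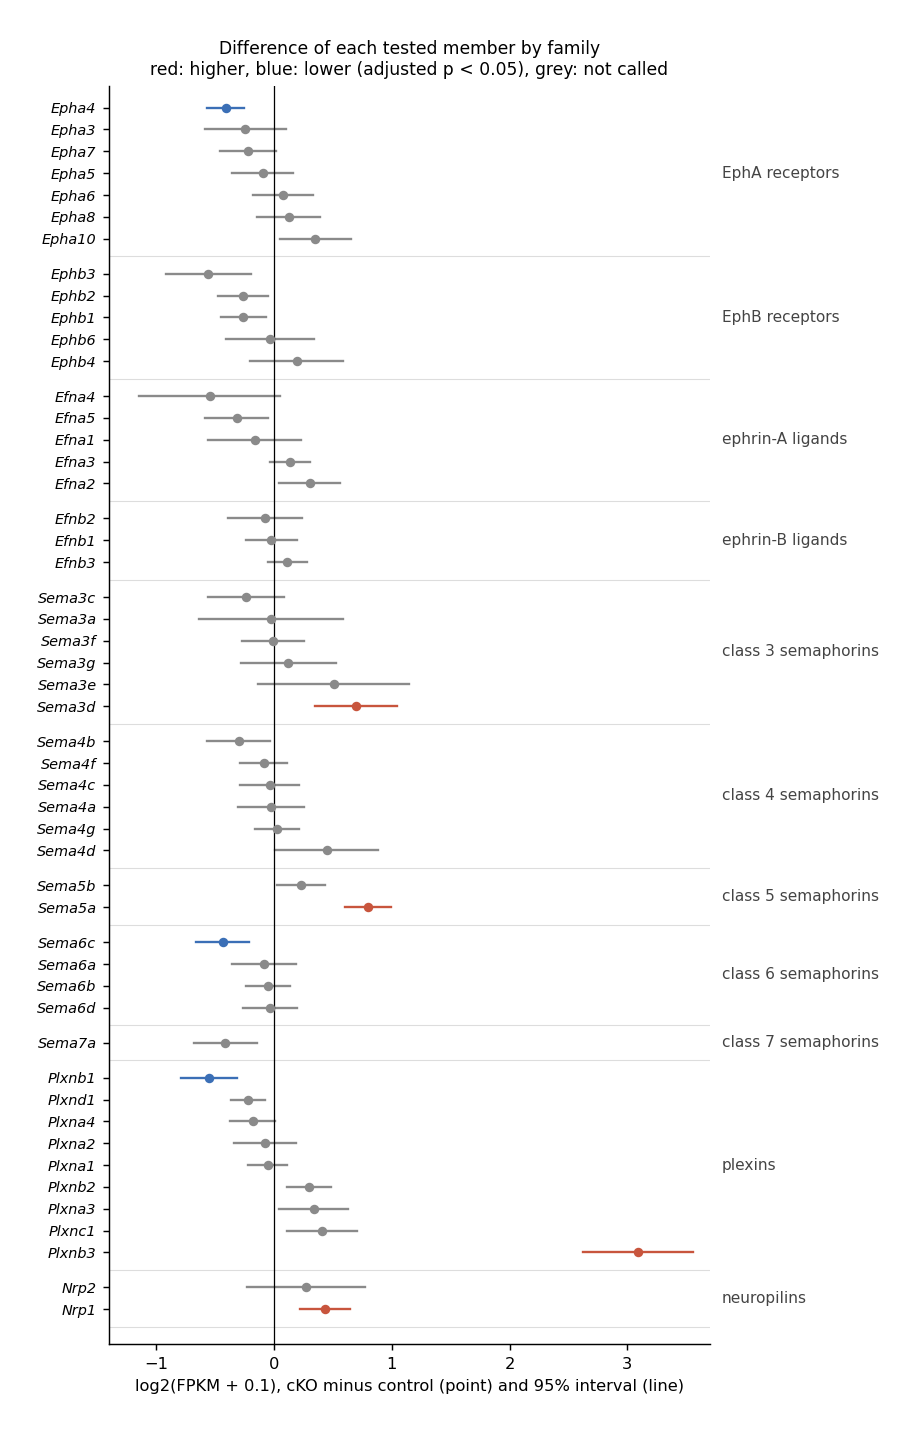
Difference in log2(FPKM + 0.1), cKO minus control, for each of the 50 tested members, grouped by family and sorted by value within it; points are estimates and lines are 95% intervals. *Plxnb3*, at 3.09, stands far to the right of every other member, and the 43 members drawn in grey, which did not pass the test, lie between -0.56 and 0.51.

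The plot of differences by family shows that the called members were spread over the families and that no family of 3 or more had all its members called. Calls were split between directions among the semaphorins (2 higher and 1 lower of 19 tested) and among the plexins (1 higher and 1 lower of 9). Among the 12 tested Eph receptors 1 fell, and among the 8 ephrins no change was called. The scale of values matters for the background: 66.3% of the calls over all genes were increases with FPKM as deposited, against 49.0% after median-ratio scaling, 48.5% after upper-quartile scaling and 78.8% when the libraries were set to equal sums.

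**Figure D2:**
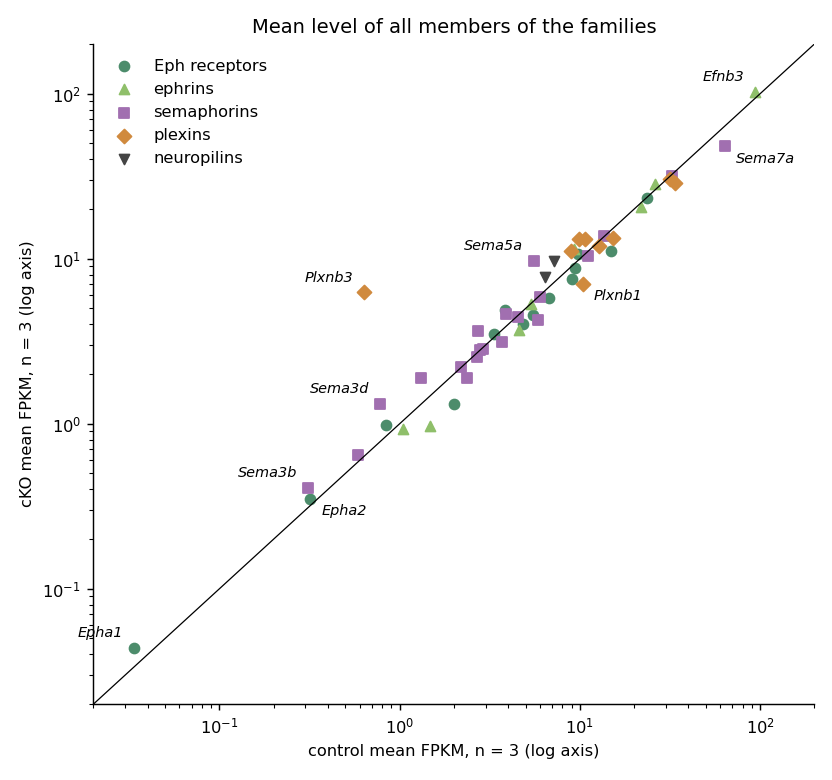
Mean FPKM in cKO (vertical, log axis) against mean FPKM in control (horizontal, log axis), n = 3 each, for all 53 members; the line marks equal levels and the symbols mark the families. Most points follow the line from *Epha1*, the lowest, to *Efnb3*, at 94.1 FPKM in control and 101.9 FPKM in cKO; *Plxnb3* lies far above it.

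For the members that passed the test, the 250 bases before the RefSeq start (GRCm38.p6, the mm10 assembly) were searched on both strands for the core letters bound by RBPJ, the DNA-binding partner of cleaved Notch (TGGGAA), for a SOX core (ACAAAG) and for the E-boxes CAGCTG and CAGATG. The 4 members shown are those that held an RBPJ or a SOX core. Capitals mark the matches, and each sequence runs 5′ to 3′ on the strand of the gene, from chrX:73756853-73757102 (plus strand), chr5:12382916-12383165 (plus), chr15:32244563-32244812 (plus) and chr1:77515089-77515338 (minus) in the order printed.
Plxnb3: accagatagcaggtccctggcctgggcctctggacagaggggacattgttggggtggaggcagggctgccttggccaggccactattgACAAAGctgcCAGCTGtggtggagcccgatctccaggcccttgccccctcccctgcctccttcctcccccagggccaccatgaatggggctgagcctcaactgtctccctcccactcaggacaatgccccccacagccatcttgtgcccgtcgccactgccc
Sema3d: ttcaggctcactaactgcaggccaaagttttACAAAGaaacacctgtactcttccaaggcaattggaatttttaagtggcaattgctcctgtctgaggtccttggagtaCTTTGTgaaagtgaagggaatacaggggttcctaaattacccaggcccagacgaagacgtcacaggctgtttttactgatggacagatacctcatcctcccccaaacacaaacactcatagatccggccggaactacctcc
Sema5a: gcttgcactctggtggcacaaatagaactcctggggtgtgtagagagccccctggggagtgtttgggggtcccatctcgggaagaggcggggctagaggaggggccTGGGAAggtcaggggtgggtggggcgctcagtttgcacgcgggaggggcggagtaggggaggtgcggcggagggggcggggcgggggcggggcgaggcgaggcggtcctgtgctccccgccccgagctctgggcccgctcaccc
Epha4: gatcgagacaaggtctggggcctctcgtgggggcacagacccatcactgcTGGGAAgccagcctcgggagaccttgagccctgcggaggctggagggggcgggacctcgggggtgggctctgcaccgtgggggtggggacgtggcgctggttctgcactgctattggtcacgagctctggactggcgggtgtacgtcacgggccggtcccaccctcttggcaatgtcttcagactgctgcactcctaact

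In *Plxnb3* the SOX core lies at positions -162 to -157 from the start and a CAGCTG E-box follows at -152 to -147. *Sema3d* holds a SOX core on the gene's strand, at -219 to -214, and another on the opposite strand at -141 to -136. *Sema5a*, which rose, and *Epha4*, which fell, each hold 1 RBPJ core, at -144 to -139 and at -200 to -195. Among the other members called, *Sema6c* holds a CAGCTG E-box in 1 of its 2 entries and *Plxnb1* and *Nrp1* hold none of these letters. Such short strings are common. The RBPJ core occurs in 21.6% and the SOX core in 16.5% of 32851 promoters of the same length, CAGCTG in 13.0% and CAGATG in 14.4%. The 47 members with an entry have 61 such promoters, and of these 11 (18.03%) hold the RBPJ core, 7 (11.5%) the SOX core, 9 (14.8%) CAGCTG and 5 (8.20%) CAGATG. The median GC content of all 32851 was 52.4%, against 65.2% in *Plxnb3*, 72% in *Sema5a*, 66% in *Epha4* and 46.8% in *Sema3d*. These shares were not matched for GC content. A match describes the sequence and is not a measured binding site.

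Among the Eph receptors, *Epha4* fell. EphA4 binds ephrins of both classes and is known in cortex for repelling axons and for limiting dendritic spines through contact with astrocytes. *Epha4* (chromosome 1, 77367185 to 77515088, minus strand) stood at 14.2, 14.7 and 15.9 FPKM in controls 1 to 3 and at 11.3, 11.4 and 10.9 FPKM in cKO 1 to 3. The groups did not overlap, and their SDs were 0.850 (control) and 0.276 FPKM (cKO). The mean was 25.1% lower in cKO (log2 -0.41, 95% interval -0.57 to -0.26, adjusted p = 0.0165). The call was lost with the replicate number as a block. It was also lost when control 2, cKO 1 or cKO 2 was left out, with an adjusted p of 0.0282 to 0.0674 over the libraries left out in turn. Astrocyte markers were lower in the same libraries, with the values given above. Within cKO their sum was highest in cKO 3, where *Epha4* was lowest. The part of these markers in the difference between the groups was not tested.

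The other 6 tested EphA receptors were not called. *Epha10*, whose protein is known to lack kinase activity, had 4.61, 3.40 and 3.59 FPKM in the controls and 4.80, 4.72 and 5.21 FPKM in the cKO libraries. The groups did not overlap (log2 0.35, adjusted p = 0.165). *Epha3*, *Epha5*, *Epha6*, *Epha7* and *Epha8*, with means of 3.33 to 10.7 FPKM in either group, had log2 differences of -0.24 to 0.12.

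EphB receptors bind ephrin-B ligands and are known for clustering glutamate receptors at young synapses. None of the 5 was called, but *Ephb1*, *Ephb2* and *Ephb3* had lower values in every cKO library than in any control. *Ephb3* stood at 2.18, 1.73 and 2.08 FPKM (control) against 1.33, 1.49 and 1.14 FPKM (cKO; log2 -0.56, 95% interval -0.92 to -0.20, adjusted p = 0.0846). *Ephb1* stood at 8.65, 9.58 and 8.79 FPKM in controls 1 to 3 and at 7.47, 6.996 and 8.03 FPKM in cKO 1 to 3 (log2 -0.26, adjusted p = 0.117). *Ephb2*, a γ-secretase substrate, stood at 5.06, 5.95 and 5.51 FPKM in the controls and at 4.66, 4.64 and 4.37 FPKM in the cKO libraries (log2 -0.26, adjusted p = 0.144). An unadjusted p under 0.05 without overlap, as in these 3, was found in 21.2% of all tested genes, and the receptors were not tested as a group.

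*Ephb6*, a further receptor without kinase activity, was the most abundant Eph receptor. Its level was 22.6, 21.7 and 26.7 FPKM (control) against 26.3, 26.0 and 17.8 FPKM (cKO), where cKO 3 lay below all other libraries. Without cKO 3 the log2 difference was 0.15 in place of -0.04. *Ephb4*, known from vessels, had means of 0.837 and 0.978 FPKM. Summed over the 14 Eph receptor genes, expression was 91.9 to 97.2 FPKM in controls against 81.8 to 90.5 FPKM in cKO, and these ranges did not overlap.

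Ephrin ligands gave no call in either class. *Efnb3*, a membrane-spanning ligand known from the corticospinal midline and from synapses, had the highest level of all the members. It stood at 95.8, 95.3 and 91.2 FPKM in controls 1 to 3 and at 98.6, 94.5 and 112.6 FPKM in cKO 1 to 3. The groups overlapped, with cKO 3 the highest (log2 0.11, 95% interval -0.05 to 0.28, adjusted p = 0.405). *Efnb1* stood at 5.62, 5.41 and 5.06 FPKM in the controls and 5.01, 5.11 and 5.74 FPKM in the cKO libraries, a log2 difference of -0.02 with an interval of -0.24 to 0.19. *Efnb2*, known from arteries and from neurons, stood at 24.2, 23.9 and 17.4 FPKM (control) against 19.9, 18.9 and 22.6 FPKM (cKO), with an interval of -0.40 to 0.24. Both are γ-secretase substrates, and the sign of either small difference turned when single libraries were left out.

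Of the lipid-anchored ephrin-A ligands, *Efna3* was the most abundant, at 23.8, 25.8 and 28.3 FPKM in controls 1 to 3 and 28.4, 29.2 and 27.6 FPKM in cKO 1 to 3. Its groups overlapped (log2 0.13, adjusted p = 0.329). *Efna5*, known for guiding thalamic and retinal axons, stood at 4.62, 4.29 and 4.95 FPKM in the controls and at 3.69, 4.14 and 3.27 FPKM in the cKO libraries (log2 -0.32, adjusted p = 0.158). *Efna2* had the opposite sign, at 8.03, 10.4 and 9.45 FPKM (control) against 11.8, 12.1 and 10.5 FPKM (cKO; log2 0.30, adjusted p = 0.162). Neither overlapped between groups. *Efna1* (means of 1.05 and 0.927 FPKM) and *Efna4* (1.47 and 0.975 FPKM) were the lowest ephrins, and the interval of *Efna4* ran from -1.15 to 0.05.

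Among the semaphorins, *Sema5a* and *Sema3d* rose and *Sema6c* fell. *Sema5a* encodes a membrane-spanning semaphorin with thrombospondin repeats, known as a ligand of plexin-B3 and as a cue made by oligodendrocyte lineage cells in the optic nerve. It lies on chromosome 15, 32244813 to 32696341, plus strand. Its level was 5.52, 5.33 and 5.78 FPKM in controls 1 to 3 and 8.97, 10.4 and 9.88 FPKM in cKO 1 to 3. The lowest cKO library stood well above the highest control. The mean rose by 75.7%, from 5.54 ± 0.221 to 9.74 ± 0.710 FPKM (SD, n = 3; log2 0.80, 95% interval 0.61 to 0.99, adjusted p = 0.00301). It remained called under each of the 16 alternatives tried, with an adjusted p of 0.00221 to 0.0217. The related *Sema5b* stood at 3.79, 4.08 and 3.86 FPKM in the controls and 4.38, 4.55 and 4.85 FPKM in the cKO libraries, without overlap, and was not called (log2 0.23, adjusted p = 0.181).

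*Sema3d*, a secreted class 3 semaphorin (chromosome 5, 12383385 to 12588948, plus strand), was among the lowest members. It stood at 0.795, 0.818 and 0.719 FPKM (control) against 1.25, 1.25 and 1.47 FPKM (cKO). The rise of 70.1% (log2 0.70, 95% interval 0.35 to 1.04) had an adjusted p of 0.0424. Its call was lost whichever library was left out (0.0704 to 0.119) and after median-ratio or upper-quartile scaling. It was also lost without the filter on low values and with the replicate number as a block. *Sema3c* was the most abundant of its class, at 4.06, 3.50 and 3.54 FPKM in controls 1 to 3 and 3.48, 3.34 and 2.59 FPKM in cKO 1 to 3 (log2 -0.24, adjusted p = 0.352). *Sema3e*, the ligand of plexin-D1, had the largest positive difference among members not called (log2 0.51, 95% interval -0.13 to 1.15), with overlapping groups. *Sema3a*, the best known repellent of cortical axons, had means of 2.18 and 2.21 FPKM, but cKO 3 at 1.37 FPKM lay below all other libraries. *Sema3f* differed by -0.01 (-0.27 to 0.25) and *Sema3g* by 0.12 (-0.28 to 0.53).

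*Sema6c*, a membrane-spanning semaphorin on chromosome 3 (95160457 to 95174024, plus strand), stood at 6.30, 5.91 and 5.24 FPKM in the controls and at 4.46, 4.11 and 4.21 FPKM in the cKO libraries. All cKO libraries lay below all controls. The mean was 26.7% lower in cKO (log2 -0.44, adjusted p = 0.0468), the value nearest the threshold among the 7 calls. The call was lost without control 1, control 2 or any of the 3 cKO libraries (0.0303 to 0.153 over the libraries left out in turn). It was also lost when the libraries were set to equal sums, without the filter on low values, without the variance trend, and with the replicate number as a block. The other 3 class 6 genes, which signal to plexins of the A class, were not called. *Sema6b*, the most abundant of them, stood at 31.9, 33.1 and 32.7 FPKM (control) against 28.3, 31.2 and 35.0 FPKM (cKO), and *Sema6a* and *Sema6d* differed by -0.09 and -0.04 on the log2 scale.

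*Sema7a*, the lipid-anchored semaphorin that signals through plexin-C1 and integrins, was the most abundant semaphorin. It stood at 58.5, 61.3 and 71.8 FPKM in controls 1 to 3 and at 53.4, 49.8 and 40.9 FPKM in cKO 1 to 3. The groups did not overlap, yet the spread within each was wide, and it was not called (log2 -0.41, 95% interval -0.68 to -0.14, adjusted p = 0.0860). Summed semaphorin expression was 165.8 to 174.4 FPKM in controls against 150.1 to 159.9 FPKM in cKO, and *Sema7a* was the largest single part of the sum in every library. *Plxnc1*, its receptor, stood at 10.7, 9.57 and 9.31 FPKM in the controls and 11.5, 12.2 and 15.9 FPKM in the cKO libraries (log2 0.41, adjusted p = 0.113). The ligand thus had lower values and the receptor higher values in every cKO library, and neither passed the test.

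Class 4 semaphorins, membrane-spanning ligands of plexins of the B class among others, had no call in 6. *Sema4d*, the classical ligand of plexin-B1, stood at 2.06, 3.52 and 2.53 FPKM (control) against 3.43, 3.92 and 3.56 FPKM (cKO), with control 2 inside the range of cKO (log2 0.45, 95% interval 0.01 to 0.88, adjusted p = 0.212). *Sema4b* stood at 2.35, 2.41 and 2.30 FPKM in controls 1 to 3 and 2.02, 1.72 and 1.95 FPKM in cKO 1 to 3, without overlap (log2 -0.30, adjusted p = 0.176). *Sema4g*, the most abundant, stood at 14.4, 13.6 and 12.6 FPKM in the controls and 14.9, 13.5 and 13.0 FPKM in the cKO libraries, and its difference of 0.02 changed sign under median-ratio and upper-quartile scaling. *Sema4a*, *Sema4c* and *Sema4f* differed by -0.09 to -0.02.

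The largest change in these families was in the plexins of the B class. Plexin-B3 is the receptor of Sema5A and is known to be expressed mainly by oligodendrocyte lineage cells in the brain. *Plxnb3* (X chromosome, 73757090 to 73772514, plus strand) stood at 0.554, 0.614 and 0.732 FPKM in controls 1 to 3 and at 4.57, 6.66 and 7.50 FPKM in cKO 1 to 3. Every cKO library stood several-fold above every control. The mean rose 9.86-fold, from 0.633 ± 0.0903 to 6.24 ± 1.51 FPKM (SD, n = 3; log2 3.09 ± 0.20 SE, 95% interval 2.62 to 3.56, adjusted p = 0.000545). The log2 difference was 2.13 to 3.30 over the 16 alternatives, with *Plxnb3* called in each. Summed oligodendrocyte markers, at 29.4, 31.0 and 46.7 FPKM in controls 1 to 3 and 125.8, 166.8 and 197.0 FPKM in cKO 1 to 3, put the 6 libraries in the same order as *Plxnb3*. That order was not particular to them. Summed microglial markers gave it too, at 68.9, 77.3 and 88.8 FPKM in controls 1 to 3 and 97.9, 109.0 and 158.8 FPKM in cKO 1 to 3. *Sema5a* did not follow it within either group. The part of these markers in the rise of *Plxnb3* and *Sema5a* was not tested.

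*Plxnb1*, the receptor of Sema4D, moved the other way. On chromosome 9 (109095389 to 109119917, plus strand), it stood at 11.1, 10.0 and 10.0 FPKM (control) against 6.69, 6.41 and 8.07 FPKM (cKO). All cKO libraries lay below all controls, with cKO 3 nearest to them. The mean was 31.9% lower in cKO (log2 -0.55, 95% interval -0.79 to -0.31, adjusted p = 0.0267). The call was lost without control 1, control 2, cKO 1 or cKO 2 (0.0102 to 0.0956 over the libraries left out in turn) and with the replicate number as a block. Of its 9592 exon bases, 257 overlap *Gm7628* on the opposite strand, which was listed at 0.0792 to 0.381 FPKM. Summed astrocyte markers were 269.2, 318.9 and 343.6 FPKM in controls 1 to 3 and 98.7, 107.0 and 191.3 FPKM in cKO 1 to 3. Within cKO they were also highest in cKO 3. Among the controls they were lowest in control 1, where *Plxnb1* was highest. The part of these markers was not tested. *Plxnb2*, expressed widely and known from cortical progenitors, stood at 11.4, 10.4 and 10.3 FPKM in controls 1 to 3 and 12.7, 12.5 and 14.3 FPKM in cKO 1 to 3. Its groups did not overlap, but it was not called (log2 0.30, adjusted p = 0.0767) except when the libraries were set to equal sums (0.0464).

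**Figure D3:**
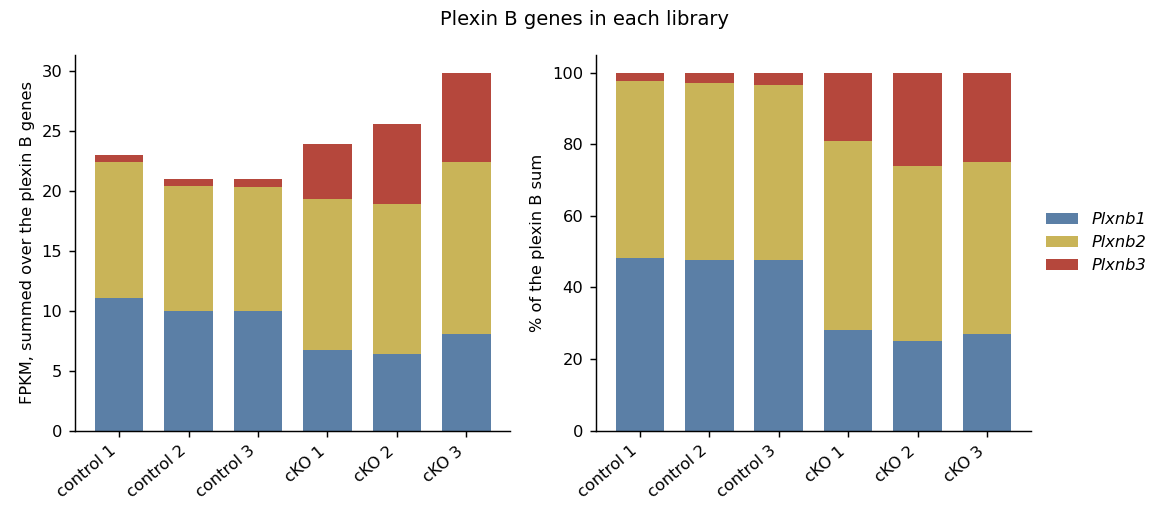
FPKM of *Plxnb1*, *Plxnb2* and *Plxnb3* stacked for each of the 6 libraries (left, vertical axis from 0) and the same as percentages of their sum (right). *Plxnb3* takes 2.41% to 3.48% of the sum in the controls and 19.1% to 26.0% in the cKO libraries, while *Plxnb1* takes 47.6% to 48.1% and 25.0% to 28.0%.

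The stacked plot of plexin B levels gives the same values as parts of a sum, which restate the calls of *Plxnb3* and *Plxnb1* and add no independent test. Together the 3 genes gave 23.0, 21.0 and 21.0 FPKM in the controls and 23.9, 25.6 and 29.9 FPKM in the cKO libraries. *Plxnb3* contributed 2.94% ± 0.535 of the sum in control and 23.4% ± 3.75 in cKO (SD, n = 3), and *Plxnb1* 47.8% ± 0.246 and 26.7% ± 1.49. An exact two-sided permutation test gave p = 0.1 for the sum and for each of these shares, the smallest p that 3 libraries against 3 can give. The share of *Plxnb2* was 47.9% to 52.9% of the sum over all 6 libraries.

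Plexins of the A class, which transduce class 3 signals with neuropilins and class 6 signals alone, gave no call in 4. *Plxna1*, at 31.6 ± 1.44 FPKM in control and 30.4 ± 2.33 FPKM in cKO, was the most abundant of them. The log2 differences were -0.05 for *Plxna1*, -0.08 for *Plxna2*, -0.18 for *Plxna4* and 0.34 for *Plxna3* (95% interval 0.05 to 0.63, adjusted p = 0.166, groups overlapping). *Plxnd1*, the Sema3E receptor known from vessels and from cortical neurons, stood at 31.4, 35.1 and 34.0 FPKM (control) against 28.2, 27.9 and 29.9 FPKM (cKO). Its groups did not overlap and it was not called (log2 -0.22, adjusted p = 0.0852).

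*Nrp1*, which encodes neuropilin-1, the receptor that binds Sema3A and vascular endothelial growth factor, rose. Located on chromosome 8 (128359073 to 128505462, plus strand), it stood at 7.66, 7.49 and 6.50 FPKM in controls 1 to 3 and at 10.3, 9.83 and 9.14 FPKM in cKO 1 to 3. The groups did not overlap. Of its 9785 exon bases, 80 are shared with the microRNA gene *Mir1903* on the same strand. The mean rose by 35.0%, from 7.22 ± 0.628 to 9.75 ± 0.568 FPKM (log2 0.43, 95% interval 0.22 to 0.64, adjusted p = 0.0393). The call was lost whichever library was left out (0.0519 to 0.140) and after median-ratio or upper-quartile scaling. It was also lost without the filter on low values and without the variance trend. *Nrp2*, which binds Sema3F, stood at 7.90, 6.22 and 5.002 FPKM in the controls and 6.44, 6.77 and 10.0 FPKM in the cKO libraries, with overlapping groups (log2 0.27, 95% interval -0.23 to 0.77). Summed endothelial markers were 45.1 to 53.5 FPKM in controls against 56.4 to 61.0 FPKM in cKO, and their part in the level of *Nrp1* was not tested.

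**Figure D4:**
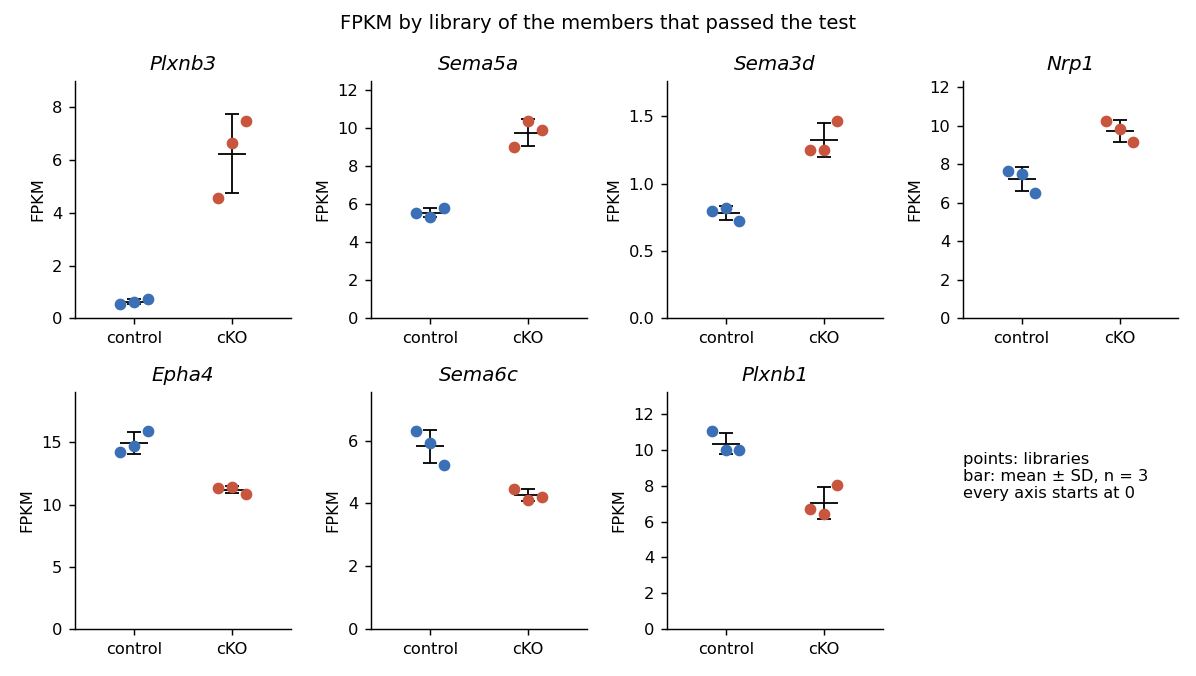
FPKM of the 7 members that passed the test, one panel each with its own axis from 0; points are libraries in the order 1 to 3, and bars are the mean ± SD of 3. In every panel the control and cKO points do not overlap, and the gap is widest for *Plxnb3*, whose controls all lie under 1 FPKM.

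The panels of the 7 called members show both the size of the *Plxnb3* difference and the narrower gaps of *Nrp1*, *Sema6c* and *Epha4*. Of the 5 members named above as γ-secretase substrates, *Nrp1* rose and *Epha4* fell. *Ephb2*, *Efnb1* and *Efnb2* were not called, and the median over the 5 was -0.08. Over all tested genes, 3.67% were called higher and 1.87% lower, and the 5 were not tested as a group. Ligand and receptor pairs known from other work could be read side by side. *Sema5a* and *Plxnb3* both rose. *Sema4d* was not called while *Plxnb1* fell, and *Sema3e* and *Plxnd1* were not called.

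Signalling partners changed in both directions. Of 35 tested genes that act with Eph receptors and ephrins, *Fyn* and *Inppl1* rose and *Pdzrn3* fell (8.57% called, against 5.53% of all tested genes), with a median log2 difference of 0.10 against 0.07 over all genes. Of 47 tested partners of semaphorins and plexins, *Fyn*, *Gipc1*, *Rnd2* and *Tyrobp* rose and *Crmp1* and *Mras* fell (12.8% called, median 0.01). *Fyn*, a Src family kinase downstream of both systems that is also known for its role in myelination, rose from 22.8 ± 0.449 to 33.7 ± 3.07 FPKM (log2 0.56, adjusted p = 0.00759). *Inppl1* encodes the lipid phosphatase SHIP2, which binds EphA2, and rose from 3.10 ± 0.575 to 5.66 ± 1.01 FPKM (log2 0.85, adjusted p = 0.0418). *Pdzrn3*, a ubiquitin ligase, fell by 0.48 (7.51 ± 0.592 to 5.33 ± 0.275 FPKM, adjusted p = 0.0268).

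*Crmp1*, a cytosolic mediator of Sema3A signals, was the most abundant of the changed partners and fell by 0.24 (162.3 ± 1.52 to 137.3 ± 4.23 FPKM, adjusted p = 0.0256). *Mras*, a small GTPase of the kind that plexins inactivate, fell by 0.34 (23.1 ± 0.452 to 18.2 ± 0.269 FPKM, adjusted p = 0.0128). *Rnd2*, known from neuronal migration, rose from 24.5 ± 1.33 to 33.3 ± 3.34 FPKM (log2 0.44, adjusted p = 0.0313). *Gipc1*, an adaptor that binds neuropilin-1 and some plexins, rose from 47.0 ± 3.57 to 62.6 ± 3.57 FPKM (log2 0.41, adjusted p = 0.0216). *Tyrobp*, a microglial adaptor that takes part in Sema6D signals through plexin-A1 and Trem2, rose from 17.7 ± 1.56 to 31.2 ± 6.04 FPKM (log2 0.80, adjusted p = 0.0198). Summed microglial markers were higher in every cKO library as well, as given above, and their part was not tested.

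The other guidance families of the cortex, netrins, Slits, Robos, Unc5, RGM, FLRT and DSCAM genes, gave 2 calls in 25 tested genes (8%, against 5.53% of all tested genes), with a median of 0.10. Both were repulsive guidance molecules, ligands of neogenin that are also co-receptors of bone morphogenetic proteins. *Rgma* fell by 0.83, from 29.2 ± 0.809 to 16.4 ± 1.48 FPKM (adjusted p = 0.00183). *Rgmb* rose from 26.3 ± 1.27 to 31.7 ± 0.565 FPKM (log2 0.27, adjusted p = 0.0363).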

How the data were processed

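RNA sequencing values of 3 control and 3 cKO cortex samples at postnatal day 8 were used. Per the file headers, the deposited values are FPKM; the series table calls them raw counts in its name, but they are decimals. The build named in the submitters' processing notes is mm10, with no role given. Which aligner, counter, annotation and strand setting the authors used is not given in the sources used here. Each of the 6 per-library tables repeated the series table's values. Depth was read from the smallest FPKM steps of genes with a single transcript, where at least 99.6% of low values lay within 0.05 of a whole fragment. Genes with several transcripts were not used for this step. No count test was run, since the deposited values are FPKM.

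The test was limma 3.58.1 (R 4.3.3; moderated, robust, with a trend of variance on mean level) on log2(FPKM + 0.1), which understates changes of low genes, with group as the only term. It covered the 14147 genes that reached 0.5 FPKM in 3 or more libraries. Benjamini-Hochberg adjustment ran across all of these, and called means an adjusted p under 0.05. The steps were tested on simulated data with independent normal noise, which cannot show the effect of a batch or of pairing.

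Members and lists were chosen with earlier results of these data known. Per-library values were to be given for members that were called, or had an unadjusted p under 0.05 and no overlap between groups. They were also to be given for the most abundant of each family and the γ-secretase substrates named above (27 genes in all). From each partner list the called genes were named. Values of other members, such as *Sema4d*, *Sema3a*, *Sema3e* and *Nrp2*, were added after they were seen. Of the genes on the partner lists and the list of other guidance families, 2 were not matched by name (*Anks1a* and *Ntn3*). Promoters came from RefSeq (GRCm38.p6). Exons of 14 members overlap those of another gene, and their reads could be shared where counting ignored strand. Coordinates are those of the deposited table, counted from 1. Alternatives varied the filter, pseudocount, scaling, variance options, a block for the replicate number, and single libraries left out. Software was Python 3.11.15, pandas 2.3.3, NumPy 2.4.6 and, for plots, matplotlib 3.10.9.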

Additional observations from a re-analysis of the deposited data

How the results depend on the processing

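Over 16 alternatives, *Plxnb3* and *Sema5a* were called in all, *Epha4* in 12, *Plxnb1* in 11, *Sema6c* in 7, and *Nrp1* and *Sema3d* in 6 each. The 7 calls kept their sign throughout. Leaving out each library in turn gave 2 to 5 called members, 3 without control 1, 2 without control 2, cKO 1 or cKO 2, and 4 without cKO 3, and 220 to 842 called genes, 311 without control 1, 220 without control 2, 321 without cKO 1 and 312 without cKO 2. With 5 libraries 1 group holds only 2, and fewer samples enter the test. Without the filter on low values, 4 members and 499 genes were called. With the replicate number as a block, *Nrp1*, *Plxnb3* and *Sema5a* remained, 3 members in all, and 456 genes were called. The labels do not say whether the numbers pair the libraries, and the values cannot settle it. Deviations of same-numbered libraries correlated at 0.06, 0.01 and 0.10, and those of differently numbered libraries at -0.09 to 0.06. Not every library correlated best with its own number. The cause of the differences in the number of calls was not tested.

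Small differences turned sign. *Sema4g* was -0.041 after median-ratio and -0.045 after upper-quartile scaling, and -0.033 to 0.070 with a library left out. With equal sums, *Efnb1* was 0.028 and *Ephb6* 0.015. With a library left out, *Efnb1* was -0.082 to 0.015, *Ephb6* -0.13 to 0.15, *Efnb2* -0.23 to 0.0033 and *Sema6b* -0.13 to 0.023. None of these 5 was called in any alternative. At 20.3 to 26.8 fragments per kilobase for 1 FPKM, members near 1 FPKM rest on fewer fragments than more abundant members of like length. The 3 libraries a group limit what the test can call.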
